A study of Oryza sativa with 6 samples.

Results

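Inositol 1,3,4-trisphosphate 5/6-kinases (ITPKs) are enzymes that add phosphate groups to inositol phosphates. In plants they act in the synthesis of phytate, the main store of phosphate in seeds, and in Arabidopsis an ITPK also makes an inositol pyrophosphate, a class of molecules that bind SPX domains in phosphate sensing. Phytate is built on myo-inositol phosphate, which is made from glucose phosphate by myo-inositol phosphate synthase, and the steps run either through membrane phosphoinositides or through soluble inositol phosphates. The rice ITPK gene family was examined in leaves of plants with ectopic OsMADS29, a MADS-box gene that is normally active in developing seeds. The members were taken by name, as the genes carrying the symbol or synonym ITPK1 to ITPK6, but the family itself was selected on the large difference of ITPK3 between the groups on these same arrays. The differences between groups are therefore given for the members as a description, with no p-value. Of the 6 names, 5 were found in the gene table and ITPK6 was skipped. The 5 genes had 6 probe sets, among 17905 genes with a probe set of their own, and 4 of them (4 probe sets) had a signal above 16 on at least 1 array.

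Total RNA of leaves 3 and 4, numbered from the flag leaf, came from the indica rice variety PB1. It was measured on 6 Affymetrix arrays, with a separate array for each sample. The MADS29OX group held 3 samples from overexpression lines, in which an OsMADS29 cDNA was placed behind a ubiquitin promoter with wide activity and the plants were selected on hygromycin, and the WT group held 3 samples of untransformed plants. The transformants were severely dwarfed with small, thin leaves, flowered early and set no seed. Leaves of the same number may therefore differ in age between the groups, which was not tested. The sources used here do not say whether the 3 samples came from separate lines, so the p-values measure the spread between these samples. In whole-leaf RNA, fewer cells of a type and less RNA per cell cannot be told apart.

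OsMADS29 had signals of 2016, 1788 and 3590 on the MADS29OX arrays, against 6.70, 6.37 and 6.64 on the WT arrays (exact permutation test, two-sided, p = 0.1, which is the lowest p attainable with 3 arrays in each group). The array medians lay between 5.951 and 5.997. Correlations of log2 signals across probe sets were 0.936 to 0.969 among MADS29OX arrays and 0.992 to 0.997 among WT arrays. The leaf origin was checked with marker genes. The 4 leaf genes on the array had summed signals of 21238 to 27915 in MADS29OX and 19724 to 19933 in WT leaves, with RCA, the Rubisco activase gene, and RBCS, a Rubisco small subunit gene, far above background and RBCS1 at background. Of 3 tested leaf genes, 1 was higher (CAB2R, a light-harvesting protein gene, 2.76-fold, adjusted p = 0.00562 from limma) and 0 lower. The limits were an adjusted p of at most 0.05 and 2-fold, passed by 5.05% of all tested genes as higher and 5.03% as lower. RCA went the other way, with a log2 fold change (MADS29OX over WT) of -0.27 (adjusted p = 0.0446 from limma), under the 2-fold limit. For RBCS the log2 fold change was 0.35 (adjusted p = 0.358 from limma), with overlapping groups. Of 10 seed storage protein genes, 8 were below 16 on every array. By their brightest probe set, the other 2 (GLB and GLUA2) were above it on all 6 arrays. A second probe set of GLUA2 had signals of 6.89 to 8.32, below 16 on every array.

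The signals deposited by the authors are linear intensities, with 1 value per probe set and array. Values below 16 were raised to 16, log2 was taken, and the fold changes below are MADS29OX over WT on that scale, with the standard error (SE) of a limma fit over all 14238 probe sets above the floor. A gene was called when its adjusted p was at most 0.05 and its change at least 2-fold, and each gene was represented by its brightest probe set. Of the 10045 genes tested in this way, 5.05% were called higher and 5.03% lower. Among the 4 tested ITPK genes, 1 (ITPK3) was called higher, 1 (ITPK2) was called lower and 2 (ITPK1 and ITPK5) were not called. Since the family was chosen with this contrast known, nothing is read from these counts.

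ITPK3 (LOC4333967) carried the largest difference of the family. The brighter of its 2 probe sets, the one whose identifier ends in S1_at, had signals of 253, 205 and 233 on the MADS29OX arrays, against 23.7, 22.0 and 32.2 on the WT arrays. The groups were far apart, with the weakest MADS29OX array well above the strongest WT array. The mean signal was 230.5 ± 24.4 in MADS29OX and 25.99 ± 5.46 in WT leaves (SD, n = 3 each), and the log2 fold change of 3.16 (SE 0.17) was a change of 8.96-fold. All WT signals were above the floor, so the fold is not a lower bound. They lay near the floor, however, and the size of the fold depends on these weak signals. With 16 added to each value in place of the floor, the log2 fold change was 2.56 (SE 0.13). The scatter of the MADS29OX arrays was small for that group, with an SD of log2 signals of 0.155 where the median over all tested genes was 0.233. On the WT arrays it was 0.291, where the median was 0.0788, since WT replicate 3 lay above the others.

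The other probe set of ITPK3, with an identifier ending in S2_at, showed no such difference. Its signals were 5.82, 5.82 and 5.80 on the MADS29OX arrays and 5.81, 5.81 and 5.81 on the WT arrays, close to the array medians and below the floor on every array. It therefore gave no fold change, and the difference between groups rested on 1 probe set. Averaging the log2 values of the 2 probe sets, with the floor, gave a log2 fold change of 1.58 (SE 0.10). With the floor the S2 probe set was constant over the arrays, so this value follows from the S1 change alone. The gene table lists a coding and a non-coding transcript for ITPK3, and which transcripts the probe sets match was not tested. The S2 probe set carried the annotation of a different cDNA from that of the S1 probe set. Neither identifier ends in _x_at or _s_at, the endings that mark probe sets matching several transcripts, and the same holds for the probe sets of the other ITPK genes.

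ITPK2 (LOC4332146), also known as DSM3 or ITL1, differed in the opposite direction. Mutants of this gene are known in rice for their sensitivity to drought and salt. Its signals were 137, 285 and 147 on the MADS29OX arrays, against 521, 547 and 589 on the WT arrays. All MADS29OX arrays were lower than all WT arrays, but MADS29OX replicate 2 stood well above the other two. The mean was 190 ± 82.9 in MADS29OX and 552 ± 34.6 in WT leaves (SD, n = 3 each). The log2 fold change was -1.62 (SE 0.29), so that the WT signal was 3.08 times the MADS29OX signal. Set against the WT mean, the individual MADS29OX arrays had log2 differences of -2.01, -0.95 and -1.90, and the SD of log2 signals in MADS29OX leaves, 0.584, was more than the median of 0.233 over all tested genes. Without MADS29OX replicate 2 the log2 fold change was -1.96. Over all 505 genes called lower, the median difference from the WT mean on that array was -1.32, against -1.43 and -1.52 on MADS29OX replicates 1 and 3. The call of ITPK2 was lost without WT replicate 2 and without WT replicate 3, although the log2 fold change stayed at -1.63 and -1.57.

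**Figure D1:**
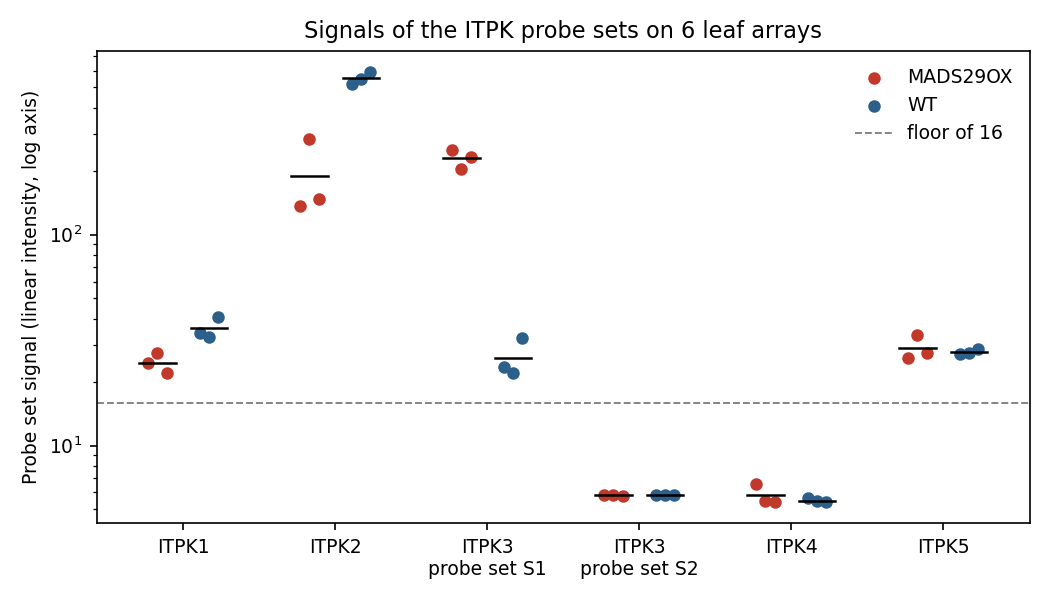
Probe set signal (linear intensity on a log axis) of the 6 ITPK probe sets on the 3 MADS29OX and 3 WT arrays; points are arrays, black bars are group means and the dashed line is the floor of 16. The MADS29OX points lie between 205 and 253 for the S1 probe set of ITPK3, above all WT points, and between 137 and 285 for ITPK2, below all WT points, while ITPK4 and the S2 probe set of ITPK3 lie under the floor on all arrays.

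ITPK1 (LOC4347947), also named ITL2, differed less between the groups than ITPK2. It had 24.7, 27.4 and 22.2 on the MADS29OX arrays, against 34.3, 32.8 and 40.8 on the WT arrays. The groups did not overlap, and the log2 fold change was -0.54 (SE 0.13), under the 2-fold limit. Nonoverlapping groups were common on these arrays, with all MADS29OX signals above all WT signals for 23.6% and below them for 26.5% of the tested genes. Of the 4 tested ITPK genes, 1 (ITPK3) lay above in this sense and 2 (ITPK1 and ITPK2) lay below.

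ITPK5 (LOC4349492), also named ITL3, had 26.1, 33.3 and 27.4 on the MADS29OX arrays, against 27.2, 27.6 and 28.9 on the WT arrays. The groups overlapped, and the log2 fold change was 0.05 (SE 0.11), which turned to -0.06 without MADS29OX replicate 2, the array with the highest signal. ITPK4 (LOC4329322) had 6.57, 5.47 and 5.43 on the MADS29OX arrays, against 5.62, 5.44 and 5.43 on the WT arrays. These signals lie at the level of the array medians, so no change of ITPK4 was measurable here. The median log2 fold change of the 4 tested members was -0.25, beside -0.01 over all tested genes. This median lies between the values of ITPK1 and ITPK5. Nothing is read from it, since the family was chosen with this contrast known.

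Within the MADS29OX group, replicate 2 stood at an end of the range for all 4 tested members, with the lowest ITPK3 and the highest ITPK2, ITPK1 and ITPK5 signal. It also had the lowest OsMADS29 signal. The array with the highest OsMADS29 signal, replicate 3, had neither the highest ITPK3 nor the lowest ITPK2 signal. A relation of the members to the OsMADS29 signal was not tested. Against the WT mean, ITPK3 was higher by 3.30, 3.00 and 3.19 on the log2 scale on MADS29OX replicates 1, 2 and 3.

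Other genes of inositol phosphate metabolism, with genes of transport and of other uses of myo-inositol, were taken from a list of names. The list was drawn up with earlier results of these data known, so its counts and p-values do not come from a blind choice. Of 8 genes found by name, 7 had a probe set and 5 were above the floor on at least 1 array. Names of inositol phosphate phosphatases and phytases were searched too, but the list held no such gene, so it covers only part of the pathway. In the limma fit 1 was called lower, 0 were called higher and 4 were not called, beside the 5.03% and 5.05% of all tested genes. At an unadjusted p under 0.05 there were 2 lower and 0 higher genes, where 21.9% of all tested genes were lower and 17.0% higher. A test with equal variances and no shared prior called 1 lower and 0 higher, beside 4.07% and 3.50% of all tested genes. The median log2 fold change of the 5 genes was -0.49, beside -0.01 over all tested genes. It is the value of RFS, which was listed for another use of myo-inositol and not for a step of inositol phosphate synthesis.

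The gene called lower was RINO1 (LOC4331917), which encodes myo-inositol phosphate synthase, the first step towards all inositol compounds. It had signals of 108, 40.3 and 88.0 on the MADS29OX arrays, against 405, 367 and 317 on the WT arrays. All MADS29OX signals were below all WT signals, with MADS29OX replicate 2 the lowest. The mean was 78.7 ± 34.6 in MADS29OX and 363 ± 43.8 in WT leaves (SD, n = 3 each), and the log2 fold change was -2.32 (SE 0.37, adjusted p = 0.00819 from limma), so that the WT signal was 4.98 times the MADS29OX signal. The call held when each array was left out in turn, with log2 fold changes between -2.60 and -1.89. It was lost when all probe sets were tested, with an adjusted p of 0.161 with the floor and an adjusted p of 0.0683 with 16 added to each value in place of the floor.

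ABCC13 (LOC4331585), also named MRP5 and LPA2, encodes a transporter whose mutants have low phytate in the grain. Its signals were 33.5, 41.1 and 31.8 on the MADS29OX arrays, against 54.4, 55.8 and 59.8 on the WT arrays. The groups did not overlap, and the log2 fold change of -0.68 (SE 0.12, adjusted p = 0.0107 from limma) passed the adjusted p but not the 2-fold limit. RFS (LOC4325200), listed under the symbol of raffinose synthase, had signals of 73.7, 41.4 and 60.4 on the MADS29OX arrays, against 86.3, 76.1 and 77.6 on the WT arrays. Here too the groups did not overlap, but the log2 fold change of -0.49 (SE 0.22, adjusted p = 0.159 from limma) did not pass. The remaining tested genes had overlapping groups. PIPK1 (LOC4333833), a phosphatidylinositol phosphate kinase gene, had a log2 fold change of -0.21 (SE 0.14, adjusted p = 0.334), and IPK1 (LOC4337286), which encodes the kinase that completes phytate, had 0.12 (SE 0.25, adjusted p = 0.753). The signal of IPK1 was 38.5 on MADS29OX replicate 1 and between 19.7 and 25.6 on the other 5 arrays. IPK2 (LOC4329509), an inositol polyphosphate kinase gene, and LPA1 (LOC4331161), a gene named for its low phytic acid mutants, were below the floor on all 6 arrays.

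**Figure D2:**
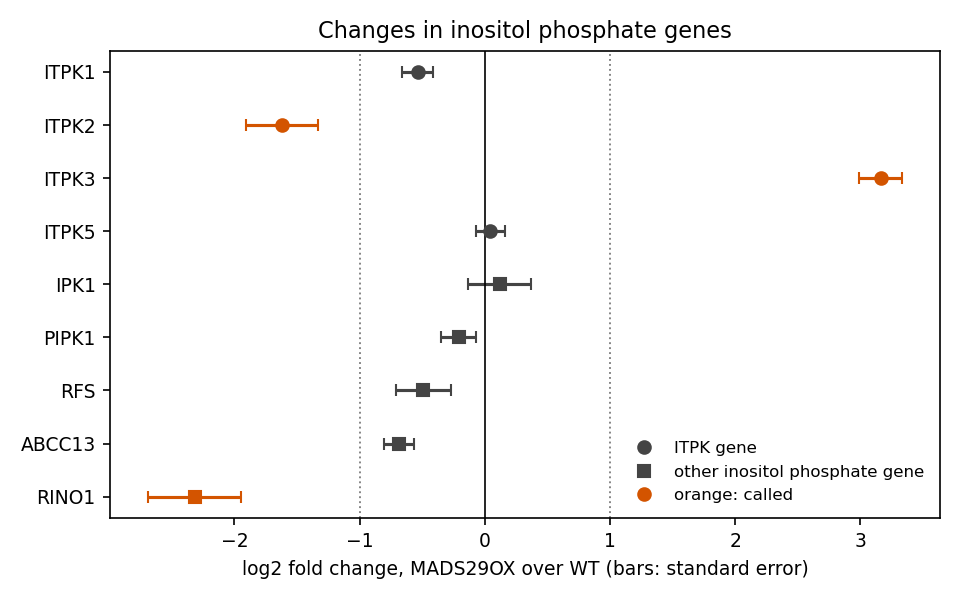
Log2 fold change, MADS29OX over WT, of the 4 tested ITPK genes (circles) and the 5 tested other inositol phosphate genes (squares); bars are standard errors, dotted lines mark 2-fold and orange marks called genes. ITPK3 lies at 3.16, while ITPK2 and RINO1 lie at -1.62 and -2.32 and the other genes lie between -0.68 and 0.12.

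**Figure D3:**
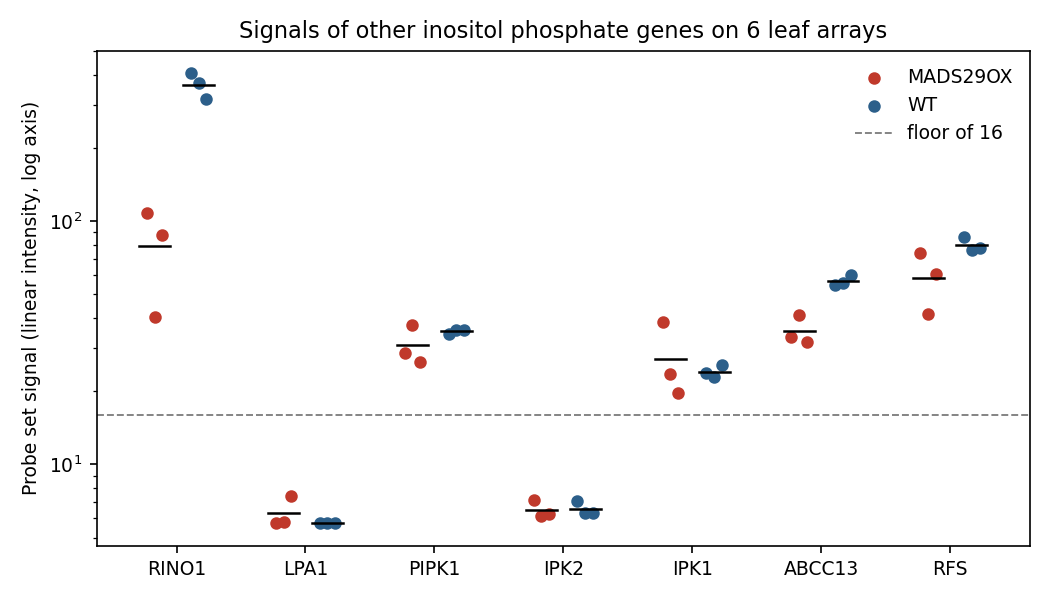
Probe set signal (linear intensity on a log axis) of 7 other inositol phosphate genes on the 3 MADS29OX and 3 WT arrays; points are arrays, black bars are group means and the dashed line is the floor of 16. RINO1 lies between 40.3 and 108 on the MADS29OX arrays and between 317 and 405 on the WT arrays, and LPA1 and IPK2 lie under the floor.

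The named genes with the signal pattern most like each member were found by the root mean square difference of log2 signals, each centred on its own mean, over the 6 arrays and 1562 named genes. For ITPK2 the nearest were GLR3.1, a glutamate receptor-like channel gene, at 0.104, OsPP2C09, a protein phosphatase gene, at 0.140 and D53-L at 0.142. Their log2 fold changes were -1.64, -1.87 and -1.54. GLR3.1 had signals of 19.5, 36.6 and 24.0 on the MADS29OX arrays, against 78.9, 79.1 and 83.2 on the WT arrays. For ITPK3 the nearest lay further off, at 0.280 for CIPK10, 0.282 for CIPK14 and 0.285 for GRXC15. CIPK10 and CIPK14 encode kinases that bind calcium sensors, and GRXC15 encodes a glutaredoxin. The log2 fold change of CIPK10 was 2.70. CIPK14 and GRXC15 had WT signals below the floor on all 3 arrays, so their log2 fold changes are lower bounds, of at least 2.79 and at least 2.84, and their distances to ITPK3 depend on the floor. The nearest to ITPK1 were HOS58 (0.051), OsTrx19 (0.069) and CAX3 (0.078), and those to ITPK5 were FTSH7 (0.021), BIPP2C1 (0.039) and OsproT (0.041), none of which was called. Genes found in this way share the direction and the array pattern of the member by construction, so neither is a result.

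The position of the members in the genome was used only to find their neighbours. Of the 24 protein-coding genes that lie within 3 places of a tested ITPK gene, 16 had a probe set and 11 were tested. In the limma fit 0 of these were called, beside 5.05% of all tested genes called higher and 5.03% lower. The test with equal variances called 0, beside 3.50% higher and 4.07% lower. With no fold limit, 2 passed the adjusted p as higher and 0 as lower, where 1148 and 1519 of all 10045 tested genes passed. At an unadjusted p under 0.05, 3 were higher and 1 was lower, where the shares over all tested genes were 17.0% and 21.9%. Next to ITPK3 the tested neighbours had log2 fold changes of 0.62, 0.25, 0.46 and 0.36, of which 0.46 (LOC4333969, SE 0.09, adjusted p = 0.0175 from limma) passed the adjusted p. Near ITPK2, LOC4332151 had 0.98 (SE 0.26, adjusted p = 0.0411), against the direction of ITPK2, and the remaining tested neighbours of ITPK2 had -0.11 and 0.05.

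The log2 fold changes of the members were also computed under up to 19 other processing settings, as a description of the contrast on which the family was chosen. Those of ITPK3 lay between 2.56 and 3.33 apart from the average of its 2 probe sets, and those of ITPK2 between -1.96 and -1.43, with no call under 5 settings. ITPK1 had values of -0.61 to -0.35.

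**Figure D4:**
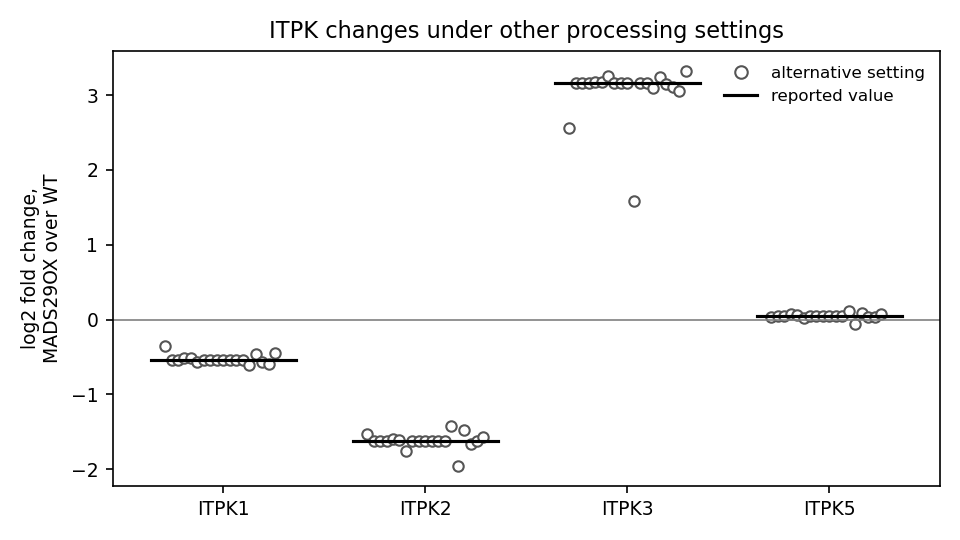
Log2 fold change, MADS29OX over WT, of the 4 tested ITPK genes under each alternative setting (points) and as reported (black line). The lowest point of ITPK3 is 1.58, where its S1 probe set is averaged with the S2 probe set, which is at the floor throughout. The points of ITPK2 lie between -1.96 and -1.43.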

How the data were processed

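The authors deposited probe set intensities on a linear scale for 57381 probe sets on 6 arrays. How the scanner signals were corrected, normalized and summarized is not given in the sources used here. After removal of 123 control probe sets, a floor of 16 was set and signals were converted to log2. A linear model with group alone was fitted in limma 3.58.1 (lmFit, eBayes; R 4.3.3) to the 14238 probe sets that exceeded 16 on at least 1 array, and Benjamini-Hochberg adjustment was made over all of these. The fit was tested on simulated data. The platform annotation gave 1 gene for 22436 probe sets, and names came from the gene table of assembly ASM3414082v1. The array design names no genome build, so coordinates are not printed, and the gene order of that assembly was used only to find neighbouring genes.

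All ITPK members, the other inositol phosphate genes with a probe set and, for each tested member, the 3 nearest named genes are named. Of the marker genes, the leaf genes with a probe set and the seed storage protein genes above the floor are named. A pair of genes listed as IMP were left out of the inositol list, because they are signal peptide peptidases. The members and lists were chosen with earlier results of these data known. With 3 arrays in each group the precision is low, and weak signals are the least certain.

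Alternatives covered the floor, the filter, normalization, array weights, the test, the fold limit, averaging of probe sets, cross-hybridizing probe sets, a replicate block and the removal of each array in turn. The average of all probe sets of a gene was added after the data were seen.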

Additional observations from a re-analysis of the deposited data

How the results depend on the processing

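The fit called 507 higher and 505 lower genes in all. Adding 16 to each value, with all probe sets tested, gave 191 and 240, with the floor and all probe sets tested 145 and 207, and with no fold limit 1148 and 1519. With 1 array left out the counts ran from 359 to 614 and from 422 to 610. As a description of the contrast that chose the family, 1 ITPK gene was called higher under every setting run. The number called lower was 1, and it was 0 with the value plus 16, with all probe sets tested and with the equal-variance test, 2 with no fold limit, and 0 to 1 with 1 array left out. Of the other inositol phosphate genes 1 was called lower, but 0 with the value plus 16 and with all probe sets tested, and 2 with no fold limit. The cause of these shifts was not tested. With the replicate number as a block 465 genes were higher and 481 lower, and no ITPK or RINO1 call changed. Deviations of samples with the same number correlated at 0.03, -0.04 and -0.13, so the numbers are not treated as pairs. Signals of ITPK1 and ITPK5 lay near the floor, which limits how small a change could be seen. The WT signals of ITPK3 also lay near the floor, which makes the size of its fold less certain. ITPK4, IPK2 and LPA1 gave no measurable signal.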
